A study of Mus musculus with 2 samples.

Results

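The genes described here encode 10 factors that skeletal muscle is known or proposed to secrete: Fndc5, Il15, Il6, Fgf21, Apln, Ostn, Metrnl, Bdnf, Lif and Erfe. They were chosen by name and found by symbol and gene identifier among 55536 annotated genes, and all 10 were matched. Their RNA was measured in the gastrocnemius, a large calf muscle composed mainly of fast fibres, by total RNA sequencing of 300 ng of RNA per library with ERCC spike-ins, which are synthetic RNAs added in known amounts. The material came from 2 female mice of the hybrid B6CASTF1/J (B6 X Cast) aged 8 to 10 months, 1 library each. Animal 1 is called replicate 1 and animal 3 is called replicate 2. The labels give a single donor identifier for both, and they name no treatment, exercise or feeding state, so whether the animals had been at rest is not given. With a single group and n = 2 no test between groups could be made, and every difference below is a description of these 2 libraries.

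Myokines are proteins that muscle fibres release and that act on the muscle itself or, through the blood, on other organs. Several are made as precursors: Fndc5 is a membrane protein whose cleaved outer part is called irisin, and Bdnf is a neurotrophin made as a precursor. Il6 and Lif are cytokines that signal through the shared receptor subunit gp130 (gene Il6st), and the transcripts of several of these factors are known to rise after muscle contraction or stress. Transcript level does not measure secretion.

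Promoter sequences from RefSeq (GRCm38.p6, the assembly also called mm10) were found for 8 of the 10 genes, not for Ostn and Il15. The 250 bases before the start site are printed for a pair of factors that reached the detection level used below (Fndc5 and Metrnl) and a pair with 1 count or fewer in each animal (Il6 and Fgf21), to show the sequences beside the levels. Capitals mark matches, on either strand, to TATAAA (the TATA box), CANNTG (the E-box), TGACGTCA (the cyclic AMP response element) or TGATGNAA (an element bound by CEBP-ATF dimers), and overlapping matches were all kept. All sequences are 5′ to 3′ on the strand of the gene.
Fndc5, chr4:129136749-129136998, plus strand: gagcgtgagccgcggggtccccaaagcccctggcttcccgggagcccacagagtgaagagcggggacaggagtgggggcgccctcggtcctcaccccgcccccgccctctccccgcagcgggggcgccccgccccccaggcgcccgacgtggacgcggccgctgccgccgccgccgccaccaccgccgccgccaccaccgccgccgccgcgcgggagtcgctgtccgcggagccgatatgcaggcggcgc
Metrnl, chr11:121702177-121702426, plus strand: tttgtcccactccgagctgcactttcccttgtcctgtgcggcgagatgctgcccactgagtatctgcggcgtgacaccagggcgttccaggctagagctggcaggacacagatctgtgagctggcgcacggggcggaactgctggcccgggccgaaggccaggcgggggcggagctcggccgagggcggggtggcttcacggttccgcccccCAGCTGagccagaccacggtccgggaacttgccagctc
Il6, chr5:30012864-30013113, plus strand: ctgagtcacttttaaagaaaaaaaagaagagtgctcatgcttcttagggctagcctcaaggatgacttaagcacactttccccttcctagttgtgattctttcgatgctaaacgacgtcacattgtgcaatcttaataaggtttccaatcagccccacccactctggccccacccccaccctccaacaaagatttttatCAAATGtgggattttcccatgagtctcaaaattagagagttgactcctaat
Fgf21, chr7:45615491-45615740, minus strand: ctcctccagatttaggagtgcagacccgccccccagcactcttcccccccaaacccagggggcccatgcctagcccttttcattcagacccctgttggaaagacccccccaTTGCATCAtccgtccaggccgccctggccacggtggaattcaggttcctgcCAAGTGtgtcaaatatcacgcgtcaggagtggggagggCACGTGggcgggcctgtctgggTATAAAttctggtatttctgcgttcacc

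The Fndc5 sequence held 80.8% G and C, against a median of 52.4% over 32851 promoters, and 99.0% of promoters were lower. It contained 38 CG dinucleotides (median 6) and no match to the 4 motifs. The Metrnl sequence held 68.4% G and C and 1 E-box match. It was matched to the start of the transcript Metrnl-201 and lies inside the annotated gene. Another transcript, Metrnl-202, starts upstream at 121701544 and had no promoter sequence. The Il6 sequence held 42.8% G and C and 1 E-box match. The Fgf21 sequence held 59.6% G and C, a TATAAA match whose first base lay at position -28 from the start site, 2 E-box matches and a TGATGNAA match at position -139. Over all promoters of that length, 12.4% held TATAAA, 66.2% CANNTG, 1.55% TGACGTCA and 3.45% TGATGNAA. A match is a description of the letters and not evidence of binding.

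Of the 10 factors, 4 were detected, meaning a level of at least 1 TPM (a read count divided by transcript length and scaled to a fixed total per library) in both animals. They were Ostn, Fndc5, Il15 and Metrnl. The other 6, Bdnf, Apln, Erfe, Il6, Lif and Fgf21, were below detection in both. Among 22028 protein-coding genes 44.0% were detected by the same rule, so the share of detected factors was near that of genes at large. No factor lay between 0.5 and 2 TPM in either animal, so thresholds of 0.5 and 2 TPM gave the same 4.

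**Figure D1:**
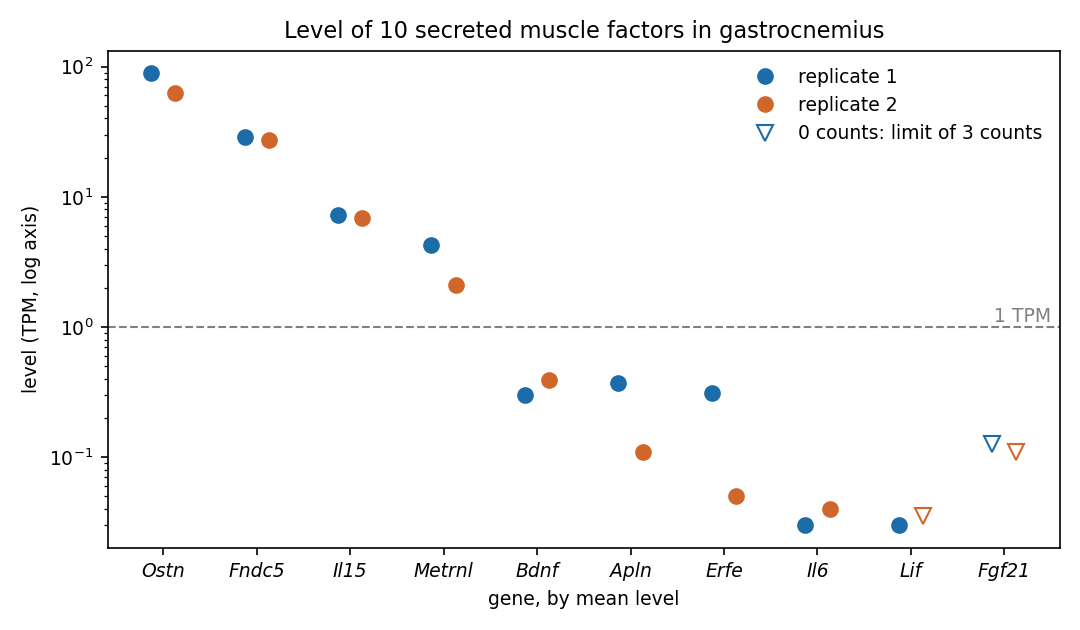
Level of each of the 10 factors in TPM (log axis) in each animal, ordered by mean level. Ostn, Fndc5, Il15 and Metrnl lie above 1 TPM in both animals, and the other 6 lie below it.

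Ostn encodes osteocrin, also called musclin, a secreted peptide that binds the natriuretic peptide clearance receptor. It is a gene on the plus strand of chromosome 16 (chr16:27307489-27351212, mm10). Its level was 88.8 TPM in replicate 1 (3296 counts) and 62.5 TPM in replicate 2 (2660 counts), with a mean of 75.6 ± 18.6 TPM (SD, n = 2). This was the highest level of the 10 factors and rank 703 among 22028 protein-coding genes. Scaled counts were 1.25-fold higher in replicate 1, with a 95% counting interval of 1.19 to 1.32. Intervals of this kind were computed from the rounded counts and reflect counting error alone, not variation between animals or preparations. The libraries carried no stated molecular identifiers, so even the counting error may be understated. For comparison, the coefficient of variation between the animals, estimated over 11127 genes beyond counting error, was 0.124.

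Fndc5, the irisin precursor, lies on the plus strand of chromosome 4 (chr4:129136999-129144593). It was at 28.8 TPM (2150 counts) in replicate 1 and 27.1 TPM (2325 counts) in replicate 2, a mean of 28.0 ± 1.15 TPM (SD, n = 2). It ranked 1863 among protein-coding genes. The scaled counts differed by 0.10 on the log2 scale, higher in replicate 2, and by -0.03 when scaled to spike-ins, so the direction depended on the scaling. Ostn and Fndc5 together made up 90.4% of the summed TPM of the 10 factors in replicate 1 and 90.3% in replicate 2. That sum was 130.05 and 99.23 TPM, or 115 ± 21.8 TPM (SD, n = 2). Ostn stood above Fndc5 in both animals, by 3.09 times and 2.30 times in TPM.

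Il15 encodes interleukin-15, a cytokine that supports natural killer and memory T cells and is abundant as a transcript in muscle. The gene lies on the minus strand of chromosome 8. It was at 7.22 TPM (178 counts) in replicate 1 and 6.89 TPM (202 counts) in replicate 2, a mean of 7.06 ± 0.233 TPM (SD, n = 2). The levels in the animals lay within each other's deposited credibility bounds, 6.70 to 10.6 TPM in replicate 1 and 6.31 to 10.1 TPM in replicate 2. Scaled counts were 1.12-fold higher in replicate 2, with a counting interval of 0.913 to 1.38 that includes no difference.

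Metrnl encodes meteorin-like, a secreted protein described in muscle and fat after exercise and cold. The gene lies on the plus strand of chromosome 11 (chr11:121701544-121716306). It was at 4.25 TPM (155 counts) in replicate 1 and 2.10 TPM (82 counts) in replicate 2, a mean of 3.18 ± 1.52 TPM (SD, n = 2). The deposited bounds of the animals, 3.72 to 5.20 TPM and 1.72 to 2.75 TPM, did not overlap. Scaled counts were 1.91-fold higher in replicate 1, with a counting interval of 1.45 to 2.53. The log2 ratio of replicate 2 over replicate 1 was -0.92, and 0.89% of the 11127 genes had a lower one.

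The bounds of Ostn, Fndc5, Il15 and Metrnl did not overlap one another within either animal, so their order held in both. Below them, the bounds of Bdnf, Apln and Erfe overlapped in replicate 1, while in replicate 2 Bdnf stood above the other two. No order is given among Il6, Lif and Fgf21, which had 3 counts or fewer. At the level of genes, the deposited posterior SD of the count was 0 for all 10 factors in both animals, as it is where an estimate shares out no reads between genes.

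Bdnf encodes brain-derived neurotrophic factor. Its level was 0.30 TPM (32 counts) in replicate 1 and 0.39 TPM (48 counts) in replicate 2. The ratio of replicate 2 to replicate 1 was 1.48, with a counting interval of 0.929 to 2.40 that includes no difference. Apln encodes apelin, the peptide ligand of the receptor Aplnr. It was at 0.37 TPM (32 counts) in replicate 1 and 0.11 TPM (11 counts) in replicate 2, so that scaled counts were 2.94-fold higher in replicate 1 (counting interval 1.44 to 6.47).

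Erfe encodes erythroferrone, also called myonectin, a member of the C1q and TNF related family that lowers hepcidin. It had 24 counts (0.31 TPM) in replicate 1 and 2 counts (0.05 TPM) in replicate 2. The ratio of replicate 1 to replicate 2 was 12.1, with a counting interval of 3.01 to 106. The gene overlaps Ilkap on the opposite strand, which had 508 and 538 counts. The kit marks strand, and whether the counting used it is not given in the sources used here. For Erfe, as for all 10 factors, the posterior SD was 0 in both animals. That value does not show from which strand the reads came. Whether reads of Ilkap were counted for Erfe was not tested.

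Il6 had 1 count in each animal, at 0.03 and 0.04 TPM. Lif, a cytokine of the interleukin-6 family, had 3 counts in replicate 1 and 0 in replicate 2. Fgf21, a hormone of the fibroblast growth factor family made mainly by liver, had 0 counts in both animals. A count of 0 was read as allowing up to 3 counts (the exact Poisson 95% interval reaches 3.69 counts), which for Fgf21 is a level of up to 0.126 TPM in replicate 1 and 0.110 TPM in replicate 2. The deposited upper credibility bounds were 0.369 and 0.323 TPM for Il6 and 0.412 and 0.334 TPM for Lif. These bounds do not show that the transcripts were absent.

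A difference of at least 2-fold between the animals was counted only for genes with a mean count of at least 50, since lower counts scatter more. None of the 4 factors that met this minimum was 2-fold apart, against 1.38% of all 11127 such genes. Their median log2 ratio was -0.11, beside 0.0041 for all of those genes. With the minimum lowered to 10, 2 factors passed 2-fold, Apln and Erfe, against 4.09% of genes. Both were higher in replicate 1, as were 2.38% of genes by that rule. With spike-in scaling, which moved the median of all genes by -0.13, Metrnl passed at -1.04, against 1.64% of genes.

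**Figure D2:**
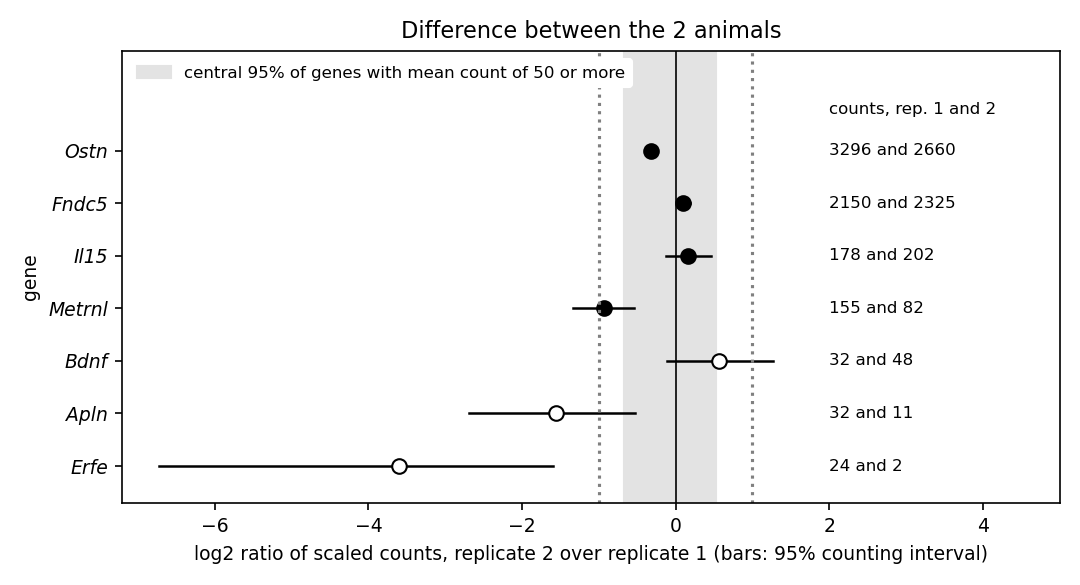
Log2 ratio of scaled counts, replicate 2 over replicate 1, for the 7 factors with more than 3 counts in an animal, with 95% counting intervals (bars) and the counts at the right. Filled points have a mean count of at least 50, the grey band is the central 95% of genes with such a count and dotted lines mark 2-fold. Metrnl, Apln and Erfe lie to the left of the band, and Bdnf lies just to its right with an interval that includes 0. The plotted ratios carry no prior count.

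Several lists of markers of other cells were higher in replicate 1, as Metrnl, Apln and Erfe were. Of 8 Schwann cell and myelin genes, 5 had a mean count of at least 50 and all 5 were at least 2-fold higher in replicate 1 (0.701% of genes were), with a summed level of 57.3 TPM against 12.7 TPM. They included Mbp, which encodes myelin basic protein (1093 and 241 counts). Of 6 lymphocyte markers, only Ighm was detected, with 3489 counts in replicate 1 and 1399 in replicate 2. Endothelial genes had a median log2 ratio of -0.17 and summed levels of 74.7 and 59.7 TPM, and fibroblast genes a ratio of -0.25 and levels of 92.8 and 67.0 TPM. Adipocyte genes had a ratio of -0.26 (60.2 and 46.0 TPM) and tendon genes one of -0.30 (38.4 and 27.2 TPM). Macrophage genes (0.08), satellite cell genes (0.05) and slow fibre genes (0.30) had medians above 0, but with spike-in scaling those of macrophage genes (-0.04) and satellite cell genes (-0.07) were below 0. Smooth muscle and pericyte genes had a median of -0.05 and summed levels of 102 and 76.6 TPM. Apart from the Schwann cell and lymphocyte lists, the medians given here lay within the central 95% of single genes with a mean count of at least 50 (-0.67 to 0.53). The part of these lists in the levels of the 10 factors was not tested. In bulk tissue, fewer cells of a type and less RNA per cell cannot be told apart. All 8 markers of fast and shared muscle fibre were detected, led by Acta1 at 23611.5 and 20055.7 TPM, as the tissue label would have it. The summed level of these 8 was 101397.6 and 89276.0 TPM, at a median log2 ratio of -0.0058. Summed TPM was thus lower in replicate 2 also where scaled counts hardly differed.

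Receptors and co-receptors linked to these factors were read in the same libraries. Of 18 such genes, 12 were detected (8 at a threshold of 2 TPM), against 44.0% of protein-coding genes. None of the 13 with a mean count of at least 50 was 2-fold apart, against 1.38% of all such genes. Il6st, the shared gp130 subunit, was highest, at 86.4 TPM in replicate 1 and 84.8 TPM in replicate 2. Lifr, its partner for Lif, was at 26.3 and 20.1 TPM, and Il6ra, the ligand-specific subunit for Il6, at 1.25 and 1.18 TPM. Both receptor subunits for Il6 and for Lif were detected at 1 TPM, and the ligand transcripts were not. At 2 TPM Il6ra was not.

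Il15ra, which presents interleukin-15 to other cells, was at 6.99 and 6.83 TPM, close to the level of Il15 itself. The signalling chains were below detection: Il2rg was at 0.41 and 0.48 TPM, and Il2rb had 0 counts in both animals. The integrin subunits Itgb5 and Itgav, a proposed irisin receptor, were at 49.3 and 41.1 TPM and at 19.0 and 18.1 TPM. For Ostn, the clearance receptor Npr3 was at 1.52 and 1.68 TPM. Npr2 and Npr1, listed beside it, are signalling receptors of the natriuretic peptides and are not given here as receptors of Ostn. They were at 15.7 and 13.9 TPM and at 2.21 and 1.59 TPM.

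For Fgf21, the receptor Fgfr1 was at 17.6 and 13.2 TPM, but the co-receptor Klb (beta-klotho) had 2 counts and 1 count. For Apln, Aplnr was at 1.45 and 1.09 TPM. Sort1, a sorting receptor of proBDNF, was at 23.9 and 20.8 TPM. Ntrk2, the receptor of mature Bdnf, was at 1.15 TPM in replicate 1 and 0.49 TPM in replicate 2, and Ngfr was at 0.13 and 0.10 TPM. Kit, a reported receptor of meteorin-like, was at 0.62 and 0.13 TPM.

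**Figure D3:**
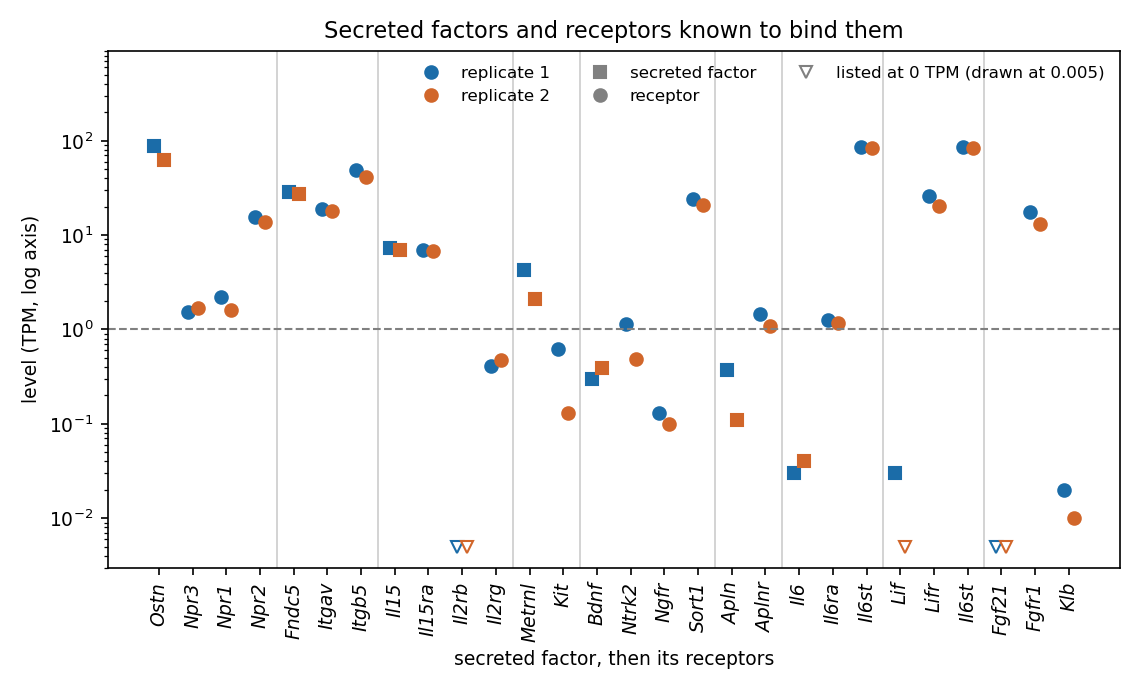
Level in TPM (log axis) of the secreted factors and of receptors linked to them, in each animal, with a dashed line at 1 TPM and open triangles for values listed at 0. Npr1 and Npr2, drawn beside Ostn, are signalling receptors of the natriuretic peptides and are not given here as receptors of Ostn. Il6st, Lifr and Fgfr1 lie above 10 TPM in both animals while Il6, Lif and Fgf21 lie below 1 TPM.

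Among 50 secreted factors, the 10 and 40 others known from muscle, Ostn was 4th by mean TPM, Fndc5 9th, Il15 18th and Metrnl 20th. Those above Ostn by mean were Psap (prosaposin) at 386 and 336 TPM, Lgals1 (galectin-1) at 97.2 and 88.3 TPM and Vegfb at 81.1 and 75.6 TPM. Ostn lay above Vegfb in replicate 1 and below it in replicate 2, also by the second quantification (Ostn 79.9 and 55.0 TPM, Vegfb 69.5 and 62.5 TPM). By mean, Ostn stood above Vegfb in the second quantification, so its place depended on the quantification. Mstn, the growth inhibitor myostatin, was next below Fndc5 by mean, at 23.5 and 27.5 TPM, but above it in replicate 2. By the second quantification Mstn was below Fndc5 in both animals (Mstn 19.1 and 22.4 TPM, Fndc5 24.4 and 23.0 TPM). In replicate 1 Ostn was 3.78 times Mstn in TPM, and in replicate 2 it was 2.27 times. Of the 40 others, 20 were detected, a share near the 44.0% of protein-coding genes at large. Of the 22 with a mean count of at least 50, Fgf6 was 2-fold higher in replicate 2 (108 and 241 counts) and Postn 2-fold higher in replicate 1 (116 and 55 counts), against 1.38% of genes 2-fold apart. Fgf6, a muscle growth factor, had a log2 ratio of 1.13, or 0.998 by the second quantification, where it no longer passed.

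**Figure D4:**
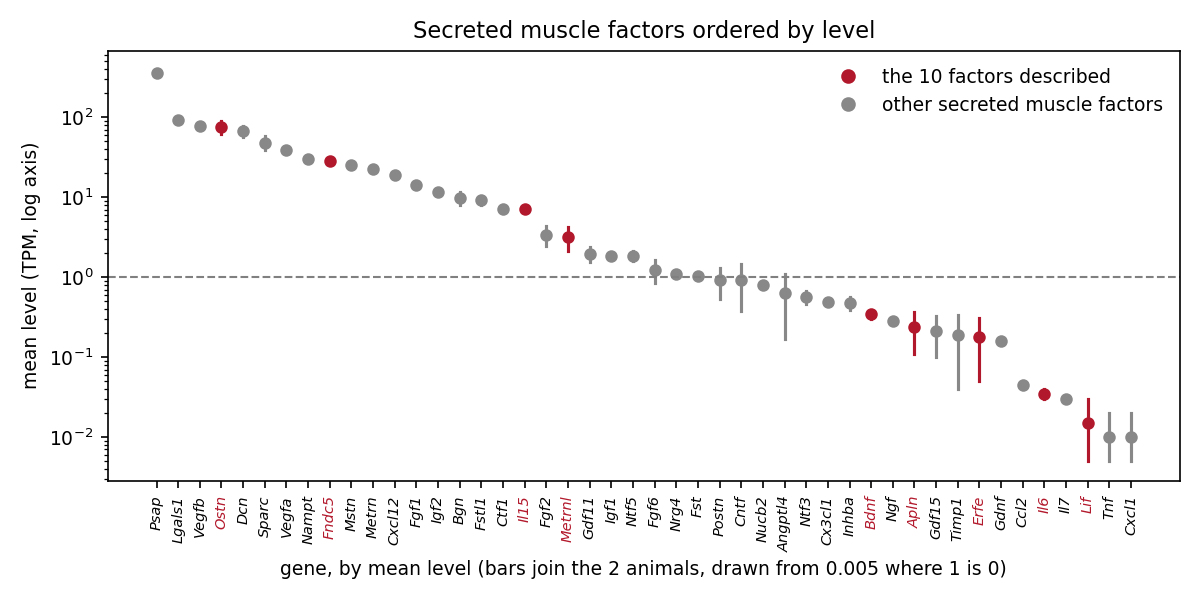
Mean level in TPM (log axis) of those of 50 secreted factors with a mean above 0 TPM, ordered by level, with a bar joining the 2 animals. The factors described here are marked, except Fgf21, which was at 0 TPM in both animals and is not drawn. Ostn is 4th, and Il6 and Lif are among the lowest drawn.

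Of 8 other ligands of the interleukin-6 family, 1 was detected, Ctf1 (cardiotrophin-1), at 7.92 and 6.28 TPM, against 44.0% of protein-coding genes. Of the 8, 4 had 0 counts in both animals, as did 28.9% of protein-coding genes. Cntf, the ciliary neurotrophic factor, had 40 counts in replicate 1 and 12 in replicate 2. Of 10 genes of the C1q and TNF related family, to which Erfe belongs, 5 were detected (3 at a threshold of 2 TPM and 9 by a count of at least 10), a share near the 44.0% of protein-coding genes. They were led by C1qtnf12 at 8.53 and 9.26 TPM and C1qtnf9 at 7.43 and 6.29 TPM. Hormones and plasma proteins made by other organs were read for comparison, and none of 12 was detected, against 44.0% of protein-coding genes. In all, 7 had 0 counts in both animals, against 28.9% of protein-coding genes, and the highest single count was 20, for Lep (leptin). Counts of Erfe and Apln in replicate 1 (24 and 32) were above that, and in replicate 2 (2 and 11) below it. Those of Bdnf (32 and 48) were above it in both animals. Lep is also 1 of the 5 adipocyte markers, of which 2 were detected, so its count is no measure of background. Counts also depend on transcript length.

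Of 9 enzymes that cut or trim precursors, 6 were detected, against 44.0% of protein-coding genes. Among them were Cpe, a carboxypeptidase of secretory granules, at 121 and 102 TPM, Furin, a protease of the secretory pathway, at 25.7 and 20.8 TPM, and the membrane proteases Adam17 (9.38 and 8.90 TPM) and Adam10 (7.44 and 5.42 TPM). Of 22 transcription factors and coactivators known to act on these genes, 21 were detected (44.0% of protein-coding genes were) and 3 were at least 2-fold higher in replicate 2, against 0.683% of genes. They were Fos (78 and 245 counts) and Egr1 (54 and 179 counts), immediate early genes induced by stimulation, and Ppargc1b (333 and 686 counts), a coactivator of oxidative metabolism. None of the 22 was 2-fold higher in replicate 1 by this scaling. With spike-in scaling Ppargc1b no longer passed (log2 ratio 0.89), Fos and Egr1 still did, and the transcription factors Foxo1 (-1.05) and Ppara (-1.03) were 2-fold higher in replicate 1. Ppargc1a, the coactivator reported to raise Fndc5, had 2630 counts in replicate 1 and 2162 in replicate 2, a log2 ratio of -0.30, beside 0.10 for Fndc5. Scaled to spike-ins, the ratios were -0.43 for Ppargc1a and -0.03 for Fndc5. A link between the levels of these genes was not tested.

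The annotation gives 1 transcript to Apln, Fgf21, Fndc5 and Ostn and several to the other 6. Metrnl-201 led its gene in both animals, with 100% of Metrnl in replicate 1 and 71.5% in replicate 2, and with 75.5% and 46.6% in the second quantification. Bdnf-205 led Bdnf in both, with 79.7% and 63.9%. The leading transcript of Il15 differed between the animals, Il15-203 with 43.2% in replicate 1 and Il15-202 with 35.8% in replicate 2. The second quantification gave Il15-202 in both, with 34.2% and 58.0%, so that split depended on the quantification. The leads of Erfe, Il6 and Lif rest on 24 counts or fewer.

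**Figure D5:**
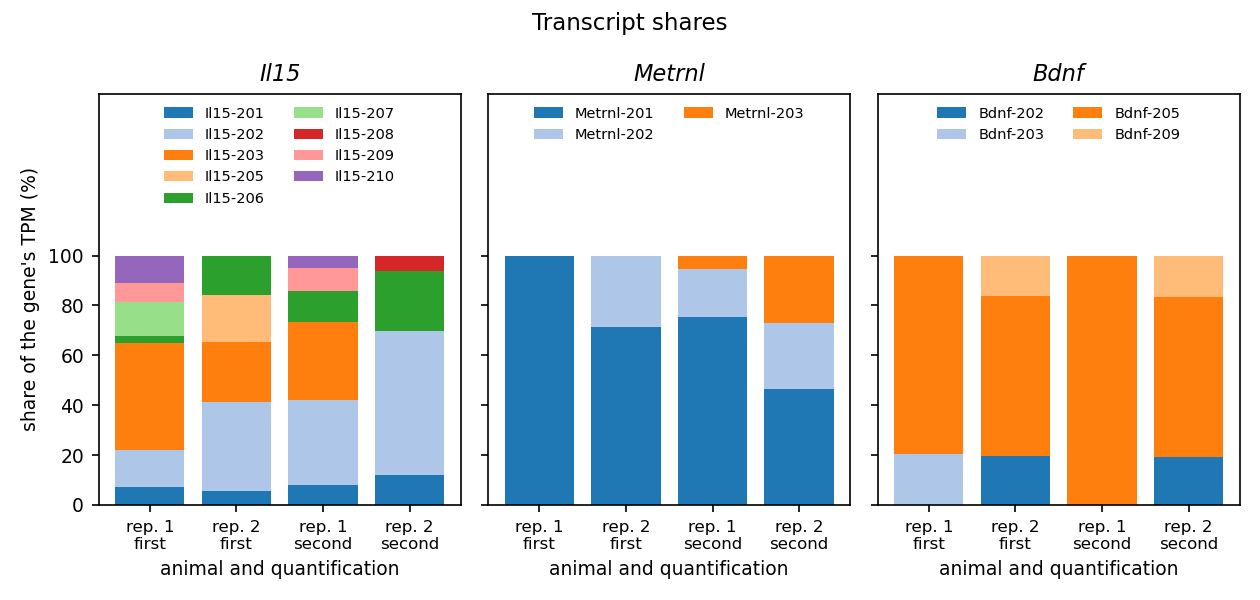
Share of each annotated transcript in its gene (percent of TPM) for Il15, Metrnl and Bdnf, by animal and quantification (stacked bars). In replicate 1 the leading transcript of Il15 changes between the quantifications, while Bdnf-205 and Metrnl-201 lead in each.

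The protein-coding genes nearest in level were found by distance in log2(TPM + 0.1) over the 2 libraries, which ranks likeness of level only. For Ostn they were Hbb-bs, a beta globin, at 83.7 and 61.8 TPM, then Map7d1 and Dnajc15. For Fndc5 they were Tom1l2, Calu and Hook3, for Il15 Foxk1, Vamp4 and Rab40b, and for Metrnl Zfp36l2, Stab1 and Aqp7. With 2 libraries, many genes share any such pair of values.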

How the data were processed

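Total RNA of 2 gastrocnemius samples was sequenced, and libraries held 42714567 and 43421652 expected counts. Per the deposited descriptions, the genome was mm10 with GENCODE M21 genes. Programs and their versions were not given in the sources used here. Deposited by the authors were expected counts per gene and transcript, in which reads that fit several features are shared out, and TPM, which is scaled over all features, so abundant short RNAs lower other values. The deposited percent values are transcript shares within a gene, and the deposited credibility bounds and posterior SD (signal values) describe the estimate within a library. A second deposited transcript table was summed to genes.

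Expected counts were rounded, scaled by TMM in edgeR 4.0.16 (R 4.3.3), and turned into log2 ratios of CPM after adding a prior count of 2. Counting intervals are exact 95% Poisson or binomial intervals. Replicates are the 2 labelled animals, and their separateness rests on the labels. The steps were tested on simulated data. Alternatives were scaling by spike-ins or by size factors of DESeq2 1.42.0, other count and TPM minimums, a prior count of 0.5, the second quantification, posterior mean TPM, omission of each animal, and TPM rescaled to nuclear protein-coding genes. The members and lists were chosen with earlier results of these data known. Named are all 10 members, all receptors, the 4 highest of every other list, list genes with a mean count of at least 50 that were 2-fold apart, and the 3 genes nearest in level to each detected member. Mstn, Foxo1, Ppara and Ppargc1a were named after their values were seen, and some genes the rule takes are not printed. Intervals were computed with SciPy 1.17.1 under Python 3.11.15.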

Additional observations from a re-analysis of the deposited data

How the results depend on the processing

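The number of detected factors was 4 at 0.5 and 2 TPM, by the second quantification, by posterior mean TPM, after rescaling over nuclear protein-coding genes and without either animal. It was 6 when an expected count of at least 10 in both animals was asked for, which adds Bdnf and Apln. The number of factors 2-fold apart was 0, and it was 1 with spike-in scaling, 2 with a mean count of at least 10 and 3 with no filter on low counts, where Lif (3 counts and 0) also passed and 11.7% of all genes with any count did. The summed level of 115 TPM became 249 TPM after rescaling over nuclear protein-coding genes, and ranged from 99.2 to 130.05 TPM when each animal was left out. Of 6 factors with several transcripts, 2 kept their leading transcript in both animals, and 5 by the second quantification. The cause was not tested. No paired analysis was possible because both animals belong to a single group. Depth limits Il6, Lif and Fgf21, which had 3 counts or fewer.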
